A study of Homo sapiens with 16 samples.

Results

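The genes described here are immediate early transcription factors and MYC in 2 glioblastoma cell lines that received a mimic of the microRNA miR-137. The 10 genes named for this were FOS, FOSB, FOSL1, FOSL2, JUN, JUNB, EGR1, IER2, IER3 and MYC, matched to the tables by their symbols. Rows for 9 of them were used, among 20314 genes in the U251 tables and 20626 in the U343 tables, and all 9 passed the filter on low counts in every comparison. IER3 was not analysed here. In the hg18 coordinates of the files, FOS lies at chr14:74815234-74818688, FOSB at chr19:50663093-50670277, FOSL1 at chr11:65416268-65424573, FOSL2 at chr2:28469283-28491020, JUN at chr1:59019051-59022373, JUNB at chr19:12763310-12765125, EGR1 at chr5:137829080-137832903 and IER2 at chr19:13122282-13126718. These are whole gene spans, exons and introns included, and none of the 9 overlaps another gene of the tables. U251 and U343 are established human glioblastoma lines. Each was transfected in dishes with a miR-137 mimic or with a control mimic at 25 nM and harvested after 48 h. For each line and mimic, RNASeq measured total RNA, and RIPSeq measured the RNA recovered with antibodies to PABP, the protein that coats the poly(A) tail of mRNAs. Whether both assays used the same cultures is not stated. Each of the 8 groups (line, assay and transfection) had 2 libraries, and ribosomal RNA was removed from all of them. U251 libraries were primed with random hexamers and U343 libraries were made with the TotalScript kit, so line and kit cannot be told apart.

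Immediate early genes are switched on within minutes of a growth factor, stress or inflammatory stimulus, without the need for new protein. FOS, FOSB, FOSL1 and FOSL2 pair with JUN or JUNB to form the AP-1 transcription factor, EGR1 is a zinc finger factor, IER2 is a small nuclear protein and MYC heterodimerises with MAX to drive growth genes. Their mRNAs are short-lived, and in glioma AP-1 and MYC are known for their part in proliferation and invasion.

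A microRNA recognises mRNAs mainly through its seed, and the mature miR-137 is shown with its seed, bases 2 to 8, in capitals. The sequence is from RefSeq (GRCh38.p14, chr1:98046091-98046113, minus strand). It is shown because the mimic is the one treatment that separates the groups.
hsa-miR-137-3p: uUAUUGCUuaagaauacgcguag
Gene counts do not measure so short an RNA, so they give no check of the mimic itself.

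The 250 bases before the start of transcription are shown for JUN, JUNB, EGR1 and IER2, the genes that were higher with miR-137 by the test in both U251 RNASeq and U343 RIPSeq and have an entry in the promoter table (RefSeq, GRCh38.p14). Capitals mark the CArG boxes, to which serum response factor binds, and the TGACGT core of the cyclic AMP response element, on either strand.
JUN (chr1:58784048-58784297, minus strand): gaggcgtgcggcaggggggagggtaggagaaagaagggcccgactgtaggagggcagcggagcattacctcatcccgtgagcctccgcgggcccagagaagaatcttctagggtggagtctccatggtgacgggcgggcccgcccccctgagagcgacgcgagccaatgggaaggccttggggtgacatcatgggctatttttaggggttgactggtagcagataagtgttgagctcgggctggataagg
JUNB (chr19:12791236-12791485, plus strand): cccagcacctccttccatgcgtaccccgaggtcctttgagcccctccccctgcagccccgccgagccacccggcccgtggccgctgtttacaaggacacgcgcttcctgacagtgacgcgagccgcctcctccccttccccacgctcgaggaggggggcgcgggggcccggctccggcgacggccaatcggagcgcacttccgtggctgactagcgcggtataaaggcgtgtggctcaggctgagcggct
EGR1 (chr5:138465229-138465478, plus strand): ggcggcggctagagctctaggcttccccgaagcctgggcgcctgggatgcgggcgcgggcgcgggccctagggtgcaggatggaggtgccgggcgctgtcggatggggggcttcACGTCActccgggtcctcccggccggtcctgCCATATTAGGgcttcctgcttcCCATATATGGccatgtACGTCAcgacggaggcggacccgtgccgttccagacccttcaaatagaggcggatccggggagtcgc
IER2 (chr19:13150161-13150410, plus strand): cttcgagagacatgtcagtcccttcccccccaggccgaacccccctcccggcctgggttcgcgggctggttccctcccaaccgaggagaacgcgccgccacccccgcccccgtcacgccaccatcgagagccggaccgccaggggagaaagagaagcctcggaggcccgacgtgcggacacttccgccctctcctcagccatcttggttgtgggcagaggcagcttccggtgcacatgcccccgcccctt
Of the 7 genes matched (FOS, FOSB, FOSL2 and these), EGR1 held a CArG box, with CCATATTAGG starting at position -105 and CCATATATGG at -83. A CArG box lay in 1.14% of 27305 promoters. Only the 250 bases were searched, so sites further upstream, in FOS or any other gene, would not be seen. TGACGT was found in 4 of the 7 (FOS at -64, FOSB at -60, FOSL2 at -66, EGR1 at -136 and -67, there as ACGTCA) against 7.42% of all promoters, and TATAAA in 3 of the 7 (FOS, FOSB and JUNB) against 11.1%. None of the 7 held the AP-1 site TGACTCA (4.16% of promoters), the full element TGACGTCA, which contains TGACGT (1.77%), or the core of the interferon-stimulated response element, GAAA and GAAA with 2 bases of any kind between them (3.07%). All motifs were searched on both strands, and a match is a description of the letters and not of binding. FOSL1 and IER3 had no entry, and MYC was not among the 7 genes matched.

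Library depth ranged from 10156675 to 18224061 counted reads in U251 RNASeq, from 22359794 to 30731476 in U251 RIPSeq and from 37736206 to 45134766 over the U343 libraries. Markers of astroglial and glioma cells, led by VIM, summed to between 6520 and 16415 CPM (counts on a gene scaled to a common library total). Those of neurons reached at most 66.0 CPM, of oligodendrocytes 5.94 CPM, of microglia and leukocytes 5.46 CPM and of endothelium 67.3 CPM, and in U343 the neuronal marker STMN2 was at 0 in all 8 libraries. In U251 RNASeq the glial sum was 11486 and 11499 CPM in the controls against 6520 and 6975 CPM with miR-137, and in U251 RIPSeq it was 11813 and 14492 CPM against 8618 and 8628 CPM. The endothelial sum, led by TEK, was 57.1 and 65.8 CPM in the U343 RIPSeq controls against 35.7 and 37.5 CPM with miR-137, and 64.2 and 67.3 against 44.7 and 51.8 CPM in U343 RNASeq. The part of these differences in the results was not tested. Each sample came from a cultured line, so the sums give RNA levels of marker genes in that line and not shares of cell types.

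2 sets of libraries stood apart from their replicates. The U251 RIPSeq controls differed from each other by a median of 0.65 on the log2 scale over genes above 1 CPM, against 0.06 to 0.23 in the other 7 groups. In U343 RNASeq, 12 genes of the interferon response summed to 224 CPM in the library labelled miR-137 replicate 1, against 226 and 235 CPM in the controls and 12566 CPM in miR-137 replicate 2. In the other 7 miR-137 libraries the sum lay between 10712 and 13066 CPM, and in the 8 control libraries between 108 and 235 CPM. For both sets, the counts of called genes and the values of the 9 genes are also given without 1 library, and the remaining library of that group is then assumed to vary like the other group. The labels name 2 replicates per group and do not say whether they were separate cultures, so the p-values measure the spread between these libraries, which may be technical.

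With miR-137, most of the 9 genes were higher, and the calls came from U251 RNASeq and U343 RIPSeq. In U251 RNASeq, 6 of 9 were higher by the edgeR test (28.7% of all 13052 genes tested were) and FOSL2 was lower (29% of all). In U343 RIPSeq, 7 of 9 were higher (28.5% of 14866) and 0 were lower (27.8%). Their median on the log2 scale was 0.95 in the first, beside 0.02 over all genes tested, and 1.08 in the second, beside 0.00487. Over all genes the calls in U251 RNASeq were 3749 higher and 3780 lower, and 4588 and 3001 under upper-quartile scaling, which moved the median from 0.02 to 0.16. In U343 RNASeq 0 of 9 were called (20% of 15088 genes were) with a median of 0.81, and 3 of 9 had an unadjusted p under 0.05 (36.8% of all). In U251 RIPSeq 0 of 9 were called (1.21% of 14087) with a median of 0.45, and 5 of 9 had an unadjusted p under 0.05 (20.1% of all). DESeq2 called 1 of 9 in U343 RNASeq (28.6% of all genes) and 4 of 9 in U251 RIPSeq (7.97% of all). Without miR-137 replicate 1, edgeR called 6 of 9 in U343 RNASeq, and 39.6% of all genes. In U251 RIPSeq it called 9 of 9 without control replicate 1, where 68.1% of all genes were called, and 7 of 9 without control replicate 2, where 74.4% were. The counts over the 9 genes thus rose together with those over all genes.

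**Figure D1:**
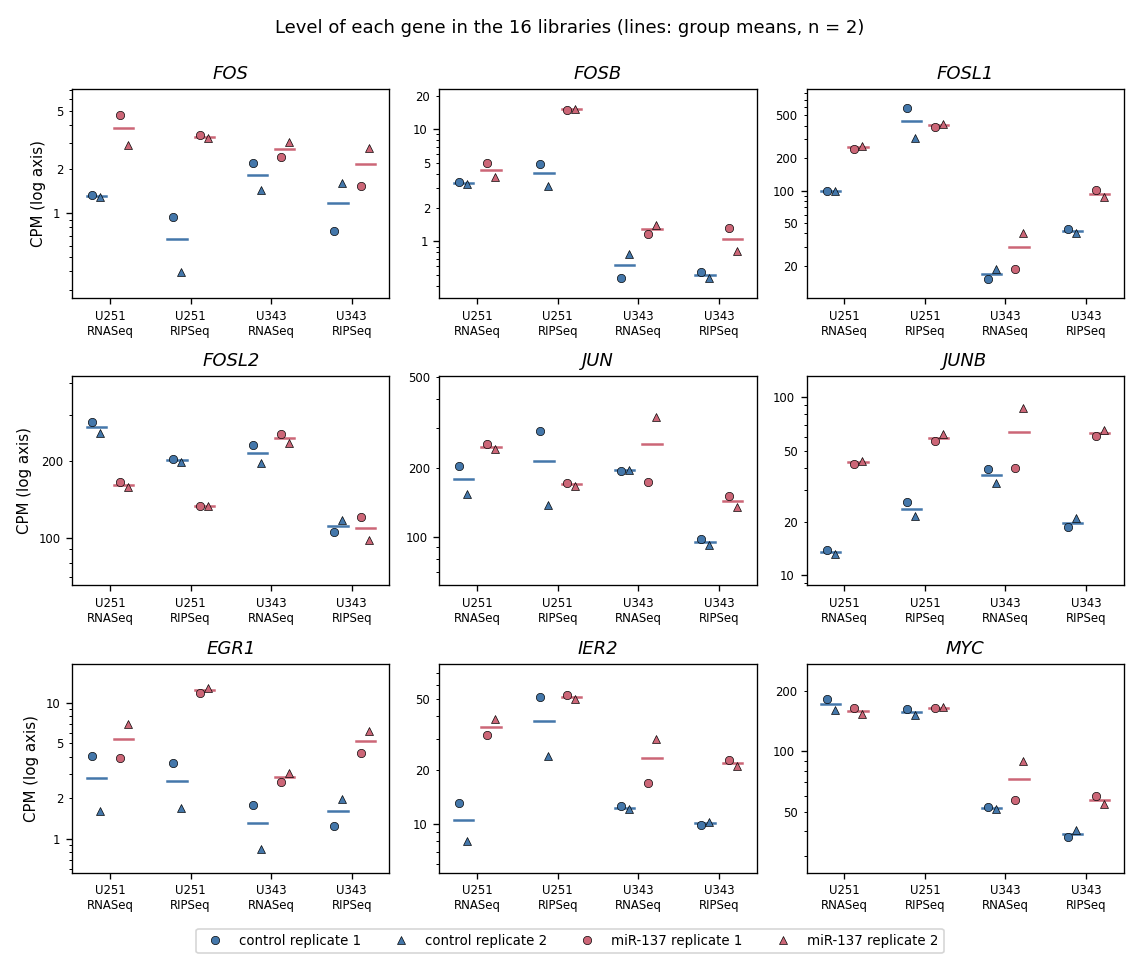
Level of each of the 9 genes in CPM (log axis) in the 16 libraries, by cell line and assay, with controls in blue, miR-137 in red, circles and triangles for replicates 1 and 2, and a line at each group mean (n = 2). JUNB and FOSB lie higher in both miR-137 libraries than in both controls in 4 of 4 experiments, and FOSL2 lies lower in both U251 experiments. Shares of all genes with these patterns over several experiments were not computed.

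JUNB, an AP-1 subunit, was the gene whose groups separated in each experiment, together with FOSB. In U251 RNASeq it stood at 13.9 and 13.2 CPM in the controls and, with miR-137, at 42.1 and 43.8 CPM, for a log2 fold change of 1.67 ± 0.14 (SE, adjusted p = 5.83e-07, edgeR). In U343 RIPSeq the controls were at 18.7 and 20.8 CPM and the miR-137 libraries at 60.3 and 65.4 CPM, which gave 1.67 ± 0.10 (adjusted p = 9.91e-06, edgeR). The groups did not overlap in either, and replicates of a group lay close to each other. In U251 RIPSeq the controls were at 25.8 and 21.5 CPM and the miR-137 libraries at 56.3 and 62.1 CPM (1.32 ± 0.26, adjusted p = 0.100, edgeR, and 1.46 and 1.29 without control replicate 1 or 2). In U343 RNASeq the controls were at 39.5 and 33.1 CPM, miR-137 replicate 1 at 40.1 CPM and replicate 2 at 87.0 CPM (0.81 ± 0.39, adjusted p = 0.214, edgeR). There the first miR-137 library lay just above the higher control, and without it the log2 fold change was 1.25. Over the 9 genes, both miR-137 libraries lay above both controls for 6 in U251 RNASeq (40.3% of all genes tested), 5 in U251 RIPSeq (29%), 7 in U343 RNASeq (32.8%) and 7 in U343 RIPSeq (39.7%).

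JUN, the founding AP-1 subunit, changed less. In U251 RNASeq it was at 204 and 154 CPM in the controls and 254 and 242 CPM with miR-137 (0.47 ± 0.15 on the log2 scale, adjusted p = 0.0146, edgeR). In U343 RIPSeq it was at 97.8 and 91.7 CPM in the controls and 151 and 134 CPM with miR-137 (0.59 ± 0.09, adjusted p = 0.00120, edgeR). The groups did not overlap in these experiments. The U251 call was lost with no filter on low counts (adjusted p = 0.100, edgeR) and in a joint fit of all U251 libraries (0.49, adjusted p = 0.342, edgeR). In that joint fit 20.8% of all genes were called, against 57.7% in the main fit. The call was also lost without control replicate 2, where the value was 0.28. In U343 RNASeq the controls were at 194 and 196 CPM, and the miR-137 libraries lay on either side of them at 174 and 335 CPM (0.38 ± 0.33, adjusted p = 0.451, edgeR). In U251 RIPSeq the controls, at 290 and 138 CPM, lay on either side of the miR-137 libraries at 172 and 167 CPM (-0.33 ± 0.41, adjusted p = 0.699, edgeR). Its direction there turned to 0.30 without control replicate 1.

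Among the FOS family, FOSL1, the FRA1 subunit associated with invasive glioma cells, rose in total RNA of U251 and in PABP-bound RNA of U343. In U251 RNASeq it was at 99.2 and 98.6 CPM in the controls and at 243 and 262 CPM with miR-137, 2.55-fold higher (log2 1.35 ± 0.13, adjusted p = 1.40e-06, edgeR). In U343 RIPSeq it was at 44.4 and 40.3 CPM in the controls and 101 and 87.2 CPM with miR-137 (1.15 ± 0.10, adjusted p = 6.60e-05, edgeR). Neither pair of groups overlapped. In U343 RNASeq the values were 15.0 and 18.7 CPM in the controls, and 18.6 CPM in miR-137 replicate 1 against 40.7 CPM in replicate 2 (0.81 ± 0.40, adjusted p = 0.223, edgeR). In U251 RIPSeq the controls were at 584 and 307 CPM and enclosed the miR-137 libraries at 393 and 419 CPM (-0.13 ± 0.36, adjusted p = 0.866, edgeR). The sign in the latter turned with the control used, with 0.40 without control replicate 1 and -0.43 without control replicate 2.

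FOSL2, the FRA2 subunit, went the other way in U251. In U251 RNASeq it was at 284 and 256 CPM in the controls and at 164 and 157 CPM with miR-137 (-0.75 ± 0.13 on the log2 scale, adjusted p = 0.000272, edgeR). In U251 RIPSeq it was at 203 and 198 CPM in the controls and 132 and 133 CPM with miR-137 (-0.60 ± 0.21, adjusted p = 0.228, edgeR, and -0.58 and -0.53 without control replicate 1 or 2). Both miR-137 libraries lay under both controls in either assay, as did 39.2% and 25.8% of all genes tested. U343 RNASeq gave 230 and 196 CPM for the controls and 254 and 234 CPM with miR-137 (0.19 ± 0.12, adjusted p = 0.322, edgeR). U343 RIPSeq gave 105 and 117 CPM in the controls and 120 and 97.7 CPM with miR-137 (-0.03 ± 0.12, adjusted p = 0.859, edgeR), with the groups overlapping. It was the one member called lower in any of the 4 experiments.

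FOS and FOSB, the classical partners of JUN, were counted at low levels. FOS had 21 reads in both U251 RNASeq controls and 52 and 33 with miR-137, which is 1.34 and 1.28 CPM against 4.69 and 2.93 CPM (log2 1.53 ± 0.32, adjusted p = 0.00102, edgeR). In U251 RIPSeq it had 22 and 11 reads in the controls and 89 in both miR-137 libraries, or 0.94 and 0.39 CPM against 3.41 and 3.27 CPM (2.33 ± 0.48, adjusted p = 0.109, edgeR). Without control replicate 1 or 2 the value was 3.07 or 1.91. The groups did not overlap in U251. U343 RNASeq gave 2.19 and 1.45 CPM in the controls and 2.42 and 3.09 CPM with miR-137 (0.59 ± 0.29, adjusted p = 0.213, edgeR). In U343 RIPSeq the groups overlapped, at 0.75 and 1.60 CPM against 1.54 and 2.81 CPM (0.90 ± 0.40, adjusted p = 0.0907, edgeR).

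FOSB was higher in both miR-137 libraries than in both controls in every experiment. For this pattern no share of all genes was computed. FOSB was called in U343 RIPSeq. It was there at 0.53 and 0.47 CPM in the controls and 1.31 and 0.82 CPM with miR-137, from 19 to 51 reads per library (1.08 ± 0.31, adjusted p = 0.0202, edgeR). The call was lost under DESeq2 (adjusted p = 0.0884) and without each of 3 of the libraries in turn, control replicates 1 and 2 and miR-137 replicate 1. U343 RNASeq gave 0.48 and 0.77 CPM in the controls and 1.16 and 1.41 CPM with miR-137 (1.06 ± 0.33, adjusted p = 0.0909, edgeR). U251 RIPSeq gave 14.9 and 15.2 CPM with miR-137 against 4.93 and 3.15 CPM in the controls (1.90 ± 0.32, adjusted p = 0.0809, edgeR, and 2.25 and 1.70 without control replicate 1 or 2). In U251 RNASeq the values were 3.39 and 3.24 CPM against 4.96 and 3.73 CPM (0.39 ± 0.25, adjusted p = 0.190, edgeR).

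EGR1, a zinc finger factor induced through serum response factor, rose in U343 RIPSeq from 1.24 and 1.97 CPM in the controls to 4.28 and 6.20 CPM with miR-137 (1.71 ± 0.27, adjusted p = 0.00120, edgeR). U251 RNASeq gave 4.02 and 1.59 CPM in the controls and 3.88 and 6.92 CPM with miR-137 (0.95 ± 0.37, adjusted p = 0.0397, edgeR). There the lower miR-137 library lay under the higher control. Settings in which the call was lost included DESeq2 (adjusted p = 0.0844) and no filter on low counts (0.90, adjusted p = 0.226, edgeR). It was also lost without control replicate 2 or miR-137 replicate 2. With 1 library left out the log2 fold change ran from 0.42 to 1.75, the lowest without control replicate 2. In U251 RIPSeq it was at 3.60 and 1.68 CPM in the controls and 11.8 and 12.9 CPM with miR-137 (2.23 ± 0.43, adjusted p = 0.100, edgeR, and 2.87 and 1.87 without control replicate 1 or 2). In U343 RNASeq it was at 1.75 and 0.84 CPM in the controls and 2.59 and 3.04 CPM with miR-137 (1.10 ± 0.39, adjusted p = 0.120, edgeR). In U251 RIPSeq and in both U343 experiments the groups did not overlap.

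IER2, an immediate early nuclear protein, rose in the same experiments as JUNB. In U251 RNASeq it was at 13.0 and 8.01 CPM in the controls and 31.5 and 38.6 CPM with miR-137 (1.74 ± 0.20, adjusted p = 9.75e-06, edgeR). In U343 RIPSeq it was at 9.86 and 10.3 CPM in the controls and 22.8 and 21.2 CPM with miR-137 (1.13 ± 0.10, adjusted p = 7.03e-05, edgeR). Both experiments had groups that did not overlap. In U343 RNASeq it was at 12.6 and 12.1 CPM in the controls, 16.9 CPM in miR-137 replicate 1 and 29.8 CPM in replicate 2 (0.92 ± 0.29, adjusted p = 0.0996, edgeR). In U251 RIPSeq the controls were at 51.6 and 24.1 CPM and the miR-137 libraries at 52.7 and 50.3 CPM (0.45 ± 0.43, adjusted p = 0.617, edgeR). The first control there lay between the 2 miR-137 libraries, and the value was 1.09 without it and 0.0882 without control replicate 2.

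MYC, the growth-promoting partner of MAX, was called in U343 RIPSeq and not in U251. In U343 RIPSeq it was at 37.2 and 40.3 CPM in the controls and 59.7 and 54.9 CPM with miR-137 (0.57 ± 0.09, adjusted p = 0.00116, edgeR). In U343 RNASeq it was at 53.0 and 51.2 CPM in the controls, 57.2 CPM in miR-137 replicate 1 and 89.0 CPM in replicate 2 (0.49 ± 0.23, adjusted p = 0.201, edgeR). Both miR-137 libraries lay above both controls in these experiments, and the call in RIPSeq was lost in a joint fit of the 8 U343 libraries (adjusted p = 0.0528, edgeR). In U251 RNASeq it was at 183 and 161 CPM in the controls and 164 and 153 CPM with miR-137 (-0.12 ± 0.13, adjusted p = 0.461, edgeR), and the sign was positive, 0.02 under upper-quartile scaling. In U251 RIPSeq it was at 163 and 152 CPM in the controls and 164 and 166 CPM with miR-137 (0.07 ± 0.21, adjusted p = 0.891, edgeR, and 0.12 and 0.11 without control replicate 1 or 2). The U251 libraries spanned a narrow range in both assays.

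**Figure D2:**
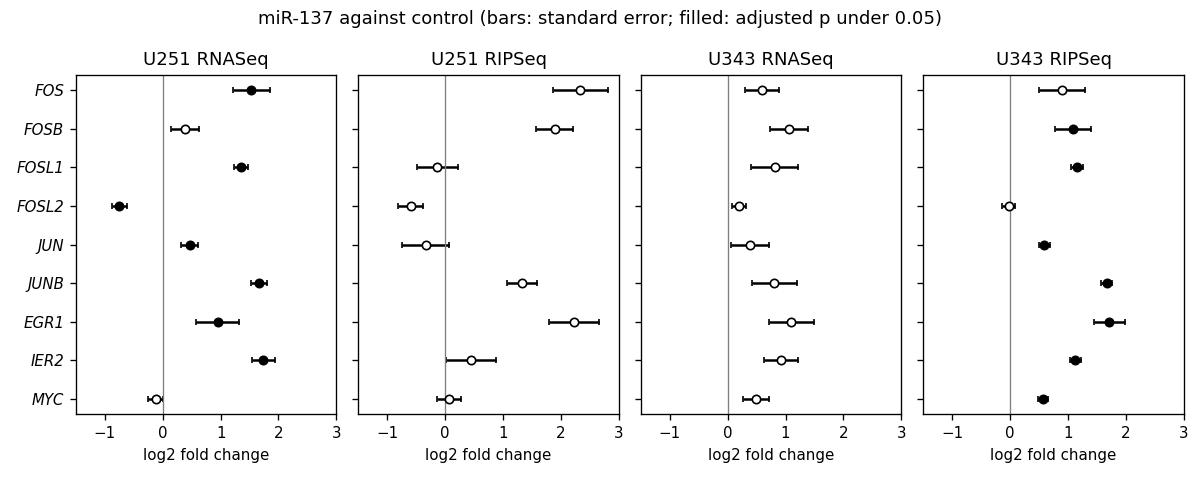
Log2 fold change of miR-137 against control for the 9 genes in the 4 experiments, with the standard error as bars and filled points for an edgeR adjusted p under 0.05. Filled points are found in U251 RNASeq (7) and U343 RIPSeq (7), and the open points of JUNB, EGR1, IER2, FOS and FOSB lie to the right of 0 in the other experiments too.

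The U343 RNASeq libraries labelled miR-137 were then compared with the control mean singly, because their interferon genes differed. Replicate 2 was above the control mean by 1.27 for FOSL1, 1.26 for JUNB, 0.78 for JUN and 0.77 for MYC on the log2 scale. Replicate 1 gave 0.14 for FOSL1, 0.14 for JUNB, -0.17 for JUN and 0.14 for MYC. EGR1 (0.99 and 1.23 in replicates 1 and 2) and FOSB (0.91 and 1.19) were above the control mean by like amounts in both. IER2 (0.45 and 1.27) and FOS (0.41 and 0.76) lay between, and FOSL2 was at 0.25 and 0.13. Of genes outside the members, JUND, a further AP-1 subunit, gave 1.33 and 1.40, and NAB1, a corepressor of EGR1, -1.33 in both. RSAD2, an antiviral interferon target, gave 0.23 and 8.69. With 1 library on each side these differences have no test. Without replicate 1, FOSB (1.20), FOSL1 (1.26), IER2 (1.26), JUN (0.77), JUNB (1.25) and MYC (0.77) were called by edgeR, as were 39.6% of all genes. FOS (0.74), EGR1 (1.19) and FOSL2 (0.13) were not. Without replicate 2 IER2 was called, at 0.45, JUN turned to -0.17, and 37.7% of all genes were called.

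**Figure D3:**
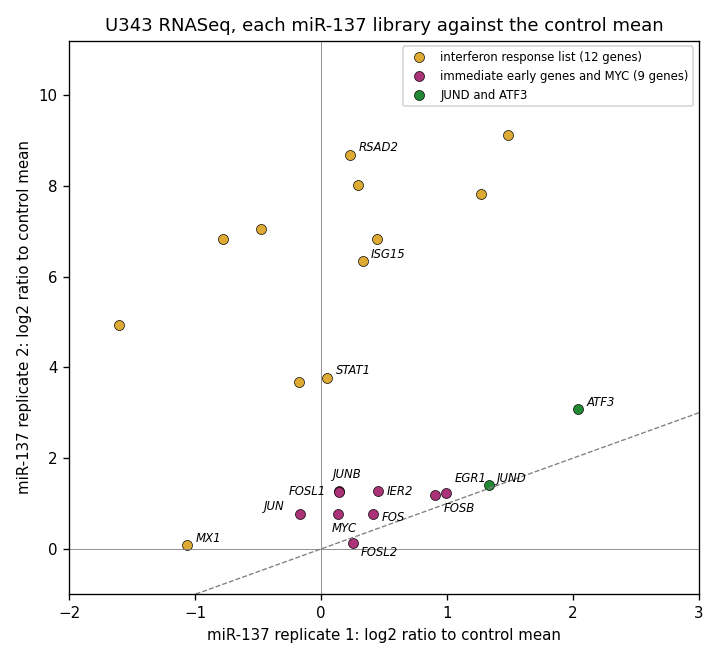
Log2 ratio to the control mean in U343 RNASeq, miR-137 replicate 1 on the horizontal axis against replicate 2 on the vertical axis, for the 9 genes (purple), JUND and ATF3 (green) and the 12 interferon response genes (yellow), with a dashed line where both are equal. EGR1, FOSB and JUND lie near that line, FOSL1, JUNB, JUN and MYC lie above it near 0 on the horizontal axis, and RSAD2 lies at 0.23 and 8.69.

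The controls of either line also show how each gene was shared between PABP-bound and total RNA. In U343, FOSL1 had a larger share in PABP-bound RNA, at 46.3 and 42.0 CPM against 14.5 and 18.1 CPM in total RNA (log2 ratio 1.44 ± 0.12, adjusted p = 0.000118, edgeR). It was the one member of 9 called higher there (24.4% of 14878 genes were), and 4 were called lower (24.2%). These were JUN, at 102 and 95.6 CPM in PABP-bound and 188 and 190 CPM in total RNA (-0.94 ± 0.07, adjusted p = 9.73e-05, edgeR), FOSL2 (-0.84 ± 0.10), JUNB (-0.77 ± 0.11) and MYC (-0.32 ± 0.08). In U251, FOSL1 stood at 595 and 297 CPM in PABP-bound RNA and at 89.4 and 87.8 CPM in total RNA (2.33 ± 0.42, adjusted p = 0.0274, edgeR). IER2 stood at 52.6 and 23.3 CPM against 11.7 and 7.14 CPM (2.01 ± 0.50, adjusted p = 0.0464, edgeR). These 2 of 9 were called higher in U251 (7.87% of 13242 genes) and 0 lower (6.14%). Both U251 calls were lost with no filter on low counts, where 0.506% of all genes were called, against 14% in the main fit. They were also lost without RNASeq control replicate 1 or 2, where the share of all genes called fell too. Without a RIPSeq control more of the 9 were called, as over all genes. Without RIPSeq control replicate 1 or 2 the ratio was 1.75 or 2.66 for FOSL1 and 1.31 or 2.40 for IER2. The groups of FOSL1 did not overlap in either line, and those of IER2 did not overlap in U251.

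**Figure D4:**
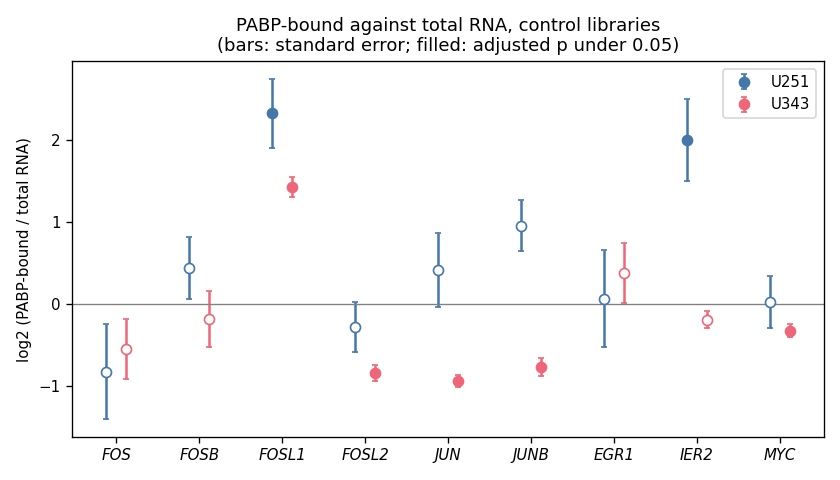
Log2 ratio of PABP-bound to total RNA for the 9 genes in the control libraries of U251 (blue) and U343 (red), with the standard error as bars and filled points for an edgeR adjusted p under 0.05 (n = 2 libraries on each side). FOSL1 lies at 2.33 in U251 and 1.44 in U343, and JUN, FOSL2, JUNB and MYC lie under 0 in U343.

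Between the lines, the control RNASeq libraries differed for 5 of 9 genes, where 84.8% of 14787 genes did, and line and kit cannot be told apart in these values. JUNB was higher in U343 (1.48 ± 0.13, adjusted p = 5.44e-06, edgeR), and 44.9% of all genes were. FOSL1 (-2.50 ± 0.12), FOSB (-2.38 ± 0.29), MYC (-1.67 ± 0.10) and FOSL2 (-0.28 ± 0.11, adjusted p = 0.0358, edgeR) were lower in U343, as were 39.9% of all. The FOSL2 call was lost with no filter and under upper-quartile scaling. For FOS, JUN, EGR1 and IER2 the differences were 0.54 ± 0.31, 0.18 ± 0.13, -1.02 ± 0.46 and 0.29 ± 0.21, and did not pass the threshold. The median of all genes was 0.10, and 0.21 under upper-quartile scaling.

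Whether the response to miR-137 differed between lines or assays was tested by interaction terms. In total RNA, the response of FOSL2 was higher in U343 than in U251 by 0.93 ± 0.18 on the log2 scale (adjusted p = 0.00880, edgeR), from -0.75 in U251 and 0.19 in U343. It was the one member of 9 called, where 25.2% of 15550 genes were. Without U343 control replicate 2 the difference was 0.82 with an adjusted p of 0.0534 (edgeR). In PABP-bound RNA, 0 of 9 were called (3.28% of 15959 genes), and 3 of 9 had an unadjusted p under 0.05 (21% of all), all with a higher response in U343, FOSL1 by 1.35 ± 0.42, FOSL2 by 0.63 ± 0.24 and MYC by 0.56 ± 0.22. Without U251 control replicate 1 or 2 the difference for FOSL1 was 0.78 or 1.69. DESeq2 called 1 of 9 and 11.7% of all genes.

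Between assays in U251, 0 of 9 genes were called (0.134% of 14210), and 3 of 9 had an unadjusted p under 0.05 (18.9% of all). The response of FOSB was larger in PABP-bound than in total RNA by 1.46 ± 0.40, while those of FOSL1 and IER2 were smaller by 1.54 and 1.35 on the log2 scale (-1.54 ± 0.42 and -1.35 ± 0.55). With 1 library left out these differences ran from 1.25 to 1.92 for FOSB, from -1.84 to -0.89 for FOSL1 and from -1.71 to -0.59 for IER2, and both ends of each came from leaving out a RIPSeq control. DESeq2 called 2 of 9 and 5.05% of all genes. In U343, 0 of 9 were called (0.00649% of 15413) and 0 had an unadjusted p under 0.05 (17.6% of all). DESeq2 also called 0 of 9 there, and 2.59% of all genes.

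The study itself called genes by an odds ratio over 2 with an adjusted p under 0.001 in Fisher's exact tests of each of the 4 control and miR-137 pairings. That rule compares libraries and does not take up the spread between replicates. Turned to rises, it took FOSL1, JUNB and IER2 in U251 RNASeq (6.14% of all genes), FOS, FOSB, JUNB and EGR1 in U251 RIPSeq (3.47%), 0 of 9 in U343 RNASeq (1.51%) and FOSL1, JUNB, EGR1 and IER2 in U343 RIPSeq (4.83%). As a rule for falls it took 0 of 9 in each experiment, with 2.21%, 1.49%, 2.88% and 3.4% of all genes. For FOSL2 in U251 RNASeq the miR-137 to control odds ratios ran from 0.663 to 0.773. JUNB was taken in 3 of 4 experiments. With library totals scaled by TMM, the scaling of the edgeR fits, rises over all genes in U251 RNASeq went from 1248 to 789. Falls there went from 448 to 796. The same 3 of the 9 genes were taken in U251 RNASeq, while FOSL1 was no longer taken in U343 RIPSeq.

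Of the related genes, the other members of the AP-1 family were called higher more often than lower in U343 RIPSeq and U251 RNASeq. In U343 RIPSeq 12 of 15 tested were called higher (28.5% of all genes) and 0 lower (27.8%), with a median of 1.01 on the log2 scale beside 0.00487 over all genes. In U251 RNASeq 8 of 13 were higher (28.7% of all) and 2 lower (29%), with a median of 0.65. ATF3, a stress-induced family member, rose by 2.84 ± 0.11 in U343 RIPSeq (adjusted p = 1.72e-06, edgeR), 2.66 ± 0.38 in U343 RNASeq and 1.01 ± 0.17 in U251 RNASeq. BATF2, an interferon-induced member, rose from a mean of 25 to 3852 reads in U343 RIPSeq, from 4.5 to 94 in U251 RNASeq and from 4.5 to 292 in U251 RIPSeq. In U343 RNASeq 4 of 14 were higher (8.31% of all genes) and 0 lower (11.7%), with a median of 0.69, and in U251 RIPSeq BATF2 was the one of 14 called (1.21% of all), with a median of 0.07 beside -0.02 over all genes. Without the library labelled miR-137 replicate 1, 9 of 15 were higher and 1 lower in U343 RNASeq, where 19.3% of all genes were higher and 20.3% lower. In U251 RIPSeq 10 of 15 were higher and 3 lower without control replicate 1 (32.8% and 35.3% of all genes), and 5 were higher and 5 lower without control replicate 2 (40.2% and 34.2%). These shares over all genes apply to the lists that follow too. In U343 RNASeq without control replicate 1 or 2, edgeR called 0 of all 15426 and 15539 genes tested (2776 and 2675 at an unadjusted p under 0.05) and so 0 of each list (5 and 5 of 15 at an unadjusted p under 0.05 here).

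A list of 36 other immediate early genes gave 26 higher and 3 lower of 36 in U251 RNASeq (median 0.73) and 26 higher and 3 lower of 34 in U343 RIPSeq (median 0.78). NR4A2, an orphan nuclear receptor, rose by 3.17 ± 0.26 in U251 RNASeq, and KLF4, a zinc finger factor, by 4.02 ± 0.25 in U343 RIPSeq (adjusted p = 4.47e-07 and 1.29e-05, edgeR). DUSP1, the phosphatase that ends MAP kinase signals, rose by 1.47 ± 0.13 in U251 RNASeq, 1.84 ± 0.21 in U343 RNASeq and 1.64 ± 0.12 in U343 RIPSeq. In U343 RNASeq 9 of 34 were higher (8.31% of all genes) and 0 lower, and without miR-137 replicate 1 it was 23 higher (19.3% of all) and 3 lower (20.3%). ARC, a synaptic immediate early gene, rose there by 2.62 ± 0.47. In U251 RIPSeq CTGF, a matrix growth factor gene, was the one of 36 called (1.51 ± 0.15). Without control replicate 1, 22 of 36 were higher (32.8% of all genes) and 8 lower (35.3%), and without control replicate 2 it was 26 (40.2%) and 9 (34.2%).

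Of the EGR family and its NAB corepressors, 1 of 3 tested was called higher and 1 lower in both U251 RNASeq and U343 RIPSeq, where 28.7% and 28.5% of all genes were higher and 29% and 27.8% lower. NAB1 fell by 1.15 in U251 RNASeq, by 1.33 in U343 RNASeq and by 1.25 in U343 RIPSeq on the log2 scale (SE 0.13, 0.16 and 0.12). It was the one of 3 tested called lower in each, while NAB2 rose in U251 RNASeq (0.62 ± 0.19) and EGR3 in U343 RIPSeq (1.61 ± 0.41). The NAB2 call was lost without U251 RNASeq control replicate 1 and the EGR3 call without U343 RIPSeq control replicate 1 or miR-137 replicate 2. In U251 RIPSeq 0 of 4 were called by edgeR, and 1 of 4 had an unadjusted p under 0.05 (20.1% of all genes did). Without control replicate 1 or 2, 2 and 3 of 4 were higher and 1 and 0 lower there. Upstream kinases and factors, the MAP kinase cascade and the ternary complex factors, gave 4 higher and 6 lower of 19 in U251 RNASeq. In U343 RIPSeq they gave 4 and 7 of 20, and fewer without control replicate 1, as over all genes. They gave 2 and 1 of 20 in U343 RNASeq and 0 of 19 in U251 RIPSeq (2 at an unadjusted p under 0.05). Without control replicate 1 or 2 the latter was 7 and 12 higher and 8 and 4 lower. MAP2K1, the kinase upstream of ERK, rose by 1.41 ± 0.14 in U251 RNASeq, MKL1, a cofactor of serum response factor, by 0.52 ± 0.10 in U343 RNASeq, and MAPK9, a JUN kinase, fell by 0.83 (SE 0.12) in U343 RIPSeq.

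Target genes of AP-1 gave 7 higher and 5 lower of 18 in U251 RNASeq (median 0.11), 11 and 2 of 18 in U343 RIPSeq (median 0.61), 8 and 0 of 18 in U343 RNASeq (median 0.74) and 2 and 0 of 19 in U251 RIPSeq (median -0.16). Without control replicate 1 or 2 the U251 RIPSeq counts were 8 and 11 higher and 10 and 5 lower, and without miR-137 replicate 1 the U343 RNASeq counts were 10 higher and 0 lower of 19. MMP1, a collagenase, rose by 2.59 ± 0.32 in U251 RNASeq and 2.23 ± 0.25 in U251 RIPSeq. The cytokine gene IL6 rose by 4.34 ± 0.81 in U343 RNASeq and IL8, a chemokine gene, by 4.20 ± 0.43 in U343 RIPSeq. IL8 was not called in U343 RNASeq, where the miR-137 libraries differed, at 29 and 267 reads against 45 and 25 in the controls, nor in U251 RIPSeq, where the controls at 1532 and 4612 CPM enclosed the miR-137 libraries at 2539 and 2576 CPM (-0.26 ± 0.53). IL6 had a mean of 7 reads in the U343 RNASeq controls and 145.5 with miR-137.

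Genes of the MYC network and MYC targets had medians near that of all genes in U343. The network gave 5 higher and 3 lower of 18 in U251 RNASeq (median 0.10), 8 and 5 of 19 in U343 RIPSeq (median -0.02), 2 and 4 of 19 in U343 RNASeq (median 0.11) and 0 of 18 in U251 RIPSeq (3 at an unadjusted p under 0.05). MNT, which competes with MYC for MAX, rose by 2.02 ± 0.21 in U251 RNASeq, the kinase PIM1 by 1.51 ± 0.14 in U343 RNASeq and MYCBP2 by 1.27 ± 0.09 in U343 RIPSeq. MYC targets gave 3 higher and 13 lower of 30 in U251 RNASeq (median -0.12), 9 and 8 of 31 in U343 RIPSeq (median 0.02), 2 and 7 of 31 in U343 RNASeq (median -0.11) and 0 of 31 in U251 RIPSeq (3 at an unadjusted p under 0.05, median -0.41). In U251 RIPSeq without control replicate 1 or 2, 9 of the network were higher in either fit and 6 and 9 lower, and 7 and 9 of the targets were higher and 17 and 19 lower. In U251 RNASeq without control replicate 2 fewer of the targets and of the network were called in either direction, as over all genes. In U343 RNASeq without miR-137 replicate 1 the network gave 5 higher and 4 lower and the targets 3 and 13. ODC1, the first enzyme of polyamine synthesis, fell by 1.68 (SE 0.15) in U251 RNASeq, TFAP4 by 0.72 (SE 0.12) in U343 RNASeq and TFRC, the transferrin receptor, by 0.97 (SE 0.17) in U343 RIPSeq.

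Proteins that bind AU-rich elements, which shorten the life of such mRNAs, gave 4 higher and 3 lower of 9 in U251 RNASeq. In U343 RIPSeq they gave 3 and 3 of 10, and fewer without any 1 of its 4 libraries, as over all genes. They gave 0 and 1 of 9 in U343 RNASeq and 0 of 10 in U251 RIPSeq (1 at an unadjusted p under 0.05). PCBP1, on this list though named as a poly(C)-binding protein, rose by 1.44 ± 0.23 in U251 RNASeq. AUH fell by 0.54 (SE 0.12) in U343 RNASeq and by 0.79 (SE 0.12) in U343 RIPSeq. The interferon response list, used above to compare libraries, gave 12 of 12 higher in U251 RNASeq, 11 of 12 in U251 RIPSeq, 11 of 12 in U343 RIPSeq and 0 of 12 in U343 RNASeq, where 6 had an unadjusted p under 0.05 (edgeR). RSAD2 rose from a mean of 3 to 8211.5 reads in U251 RNASeq and from 12 to 26905.5 in U251 RIPSeq, and MX2, another antiviral gene, from 14.5 to 24835.5 in U343 RIPSeq. The interferon genes therefore moved with the miR-137 group in 3 of the 4 experiments, and their part in the values of the immediate early genes was not tested.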

How the data were processed

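Groups of the 16 libraries were taken from the sample labels. The authors used RMAP to map reads to hg18 and assigned them to merged RefSeq gene models, and the deposited values are raw counts. Counted reads lay between 10156675 and 45134766 per library. The handling of multiply mapped reads is not given in the sources used here. An additional U251 replicate named in the methods was not analysed here.

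The 9 genes overlap no other gene of the tables. Comparisons used edgeR 4.0.16 (R 4.3.3, quasi-likelihood F test, TMM, filterByExpr) with Benjamini-Hochberg adjustment over all genes tested and a threshold of 0.05. Standard errors were the log2 fold change divided by the root of F. The marker sums, interferon sums, spread between replicates and correlations of log2 CPM over the 16 libraries used raw library totals. Other CPM used TMM-scaled totals within a comparison, so levels are not compared between experiments. They were not compared between genes, as no transcript lengths were used. Alternatives were DESeq2 1.42.0, upper-quartile scaling, no filter beyond 1 read, a mean of 50 reads, a joint fit of all libraries of a line, a replicate block and each library left out. Counts over the lists of related genes without each library were added after seeing the data. Fits were tested on simulated counts. The genes and lists were chosen with earlier results of these data known. List genes were named by the largest called change with a mean of 50 reads or more in the higher group and 1 direction in all 4 pairs, and ATF3 outside U343 RNASeq, JUND, DUSP1, NAB2 and EGR3 after their values were seen. RefSeq sequences came from GRCh38.p14 (SciPy 1.17.1, Python 3.11.15).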

Additional observations from a re-analysis of the deposited data

Results flagged for a closer look

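The response of FOSL2 to miR-137 in total RNA differed between U343 and U251 by 0.93 on the log2 scale (SE 0.18, adjusted p = 0.00880 by an interaction term in edgeR). Of all 15550 genes tested, 25.2% were called in this term, and of the 9 genes FOSL2 alone was. In U343 the change itself was not called (0.19 ± 0.12, adjusted p = 0.322, edgeR). Both U251 miR-137 libraries lay under both controls, and both U343 miR-137 libraries lay above both controls. Of the latter, replicate 1 was the library whose interferon genes stood at the level of the controls. The difference was called under each of the other fits of all 8 libraries and without each library in turn other than U343 control replicate 2, where it was 0.82 with an adjusted p of 0.0534 (edgeR). Line and library kit cannot be told apart.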

How the results depend on the processing

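In miR-137 against control, the number of the 9 genes called in U251 RIPSeq was 0, but 4 in DESeq2, 3 with the replicate block, 5 in the joint fit and 0 to 9 with 1 library left out (68.1% of all genes called at 9). In U343 RNASeq it was 0, but 1 in DESeq2, 2 in the joint fit and 0 to 6 with 1 left out (39.6% at 6). PABP-bound against total RNA in U251 gave 2, but 0 without a filter, 1 with a mean of 50 reads and 0 to 5 with 1 left out (75.9% at 5). The assay interaction gave 0, but 2 in DESeq2 and 0 to 5 with 1 left out in U251 (58% at 5), and 0 to 4 with 1 left out in U343 (19.8% at 4). The line interaction gave 1 (0 to 5 with 1 left out, 36.9% at 5) in RNASeq and 0 (1 in DESeq2, 0 to 6 with 1 left out, 52.8% at 6) in RIPSeq. The study's rule gave 3 in U251 RNASeq, but 5 with at least 3 of the 4 pairs. Over all 20314 genes the rises went from 1248 to 1683 there. With 1 library left out the number changed there and in U343 RNASeq, as did that over all genes. The other 65 counts from whole fits stayed within 1.5 times. The share of all genes called moved between these fits too. In U251 RIPSeq it was 1.21% in the main fit, 7.97% in DESeq2, 5.69% with the replicate block and 16.6% in the joint fit. In U343 RNASeq it was 20% in the main fit, 28.6% in DESeq2 and 32.7% in the joint fit. For PABP-bound against total RNA in U251 it was 14%, and 11.9% with a mean of 50 reads.

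The sign turned under upper-quartile scaling for MYC in U251 RNASeq (0.0225) and RIPSeq (-0.0104) and FOSL2 in U343 RIPSeq (0.00126), and without a filter for EGR1 and MYC in PABP-bound against total RNA in U251 (-0.16 each). The cause was not tested. With 1 library left out, miR-137 against control ran from -0.43 to 0.40 for FOSL1 and -0.68 to 0.30 for JUN in U251 RIPSeq, -0.17 to 0.77 for JUN in U343 RNASeq and -0.19 to 0.11 for FOSL2 in U343 RIPSeq. PABP-bound against total RNA ran from -0.26 to 0.80 for JUN, -0.61 to 0.74 for EGR1 and -0.20 to 0.0263 for MYC in U251, and -0.50 to 0.18 for FOSB and -0.0257 to 1.02 for EGR1 in U343. U343 against U251 ran from -0.0227 to 0.38 for JUN and -0.0383 to 0.66 for IER2. Of single-gene values, 339 under whole fits kept side and direction, 21 gained and 14 lost the threshold.

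Whether replicate numbers pair libraries is not stated. Deviations of like-numbered libraries correlated at 0.04, -0.09, 0.14 and 0.41 in U251 RNASeq, U251 RIPSeq, U343 RNASeq and U343 RIPSeq. The block called EGR1, FOS and FOSB in U251 RIPSeq, and 5.69% of all genes there (1.21% in the main fit). FOS, FOSB and EGR1 had under 100 reads in many libraries, which limits the size of change that could be seen.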

Other observations

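The genes whose level most resembled that of 4 of the genes were taken by Pearson correlation of log2 CPM over the 16 libraries, centred within each line and assay, among 13281 genes of at least 1 CPM. These libraries share their control and miR-137 groups, so the values are descriptions without a test. For MYC they were TRADD (0.962), PTK2B (0.960) and SOCS1 (0.954). For FOS they were PEAR1 (0.952), BMS1 (0.951) and FTHL3 (0.949), for EGR1 SNRPA1 (0.953), TRERF1 (0.949) and AURKC (0.945), and for JUN FHL3 (0.928), DNAH1 (0.922) and LOC728743 (0.921).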
